A study of Drosophila melanogaster with 2 samples.

Results

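The peaks described here are those of the Zfh2-eGFP fusion that lie just upstream of a protein-coding promoter that does not face a second one. From the list of 4344 peaks on dm6 that passed the irreproducible discovery rate (IDR, a filter on how well peaks repeat between replicates), a peak was taken when 2 conditions held. The transcript start site (TSS) nearest to its summit was protein-coding, with the summit 1 to 500 bp upstream of it on the gene's strand. The summit was also more than 500 bp from the midpoint of every divergent protein-coding pair, that is, of 2 genes on opposite strands whose 5' ends lie 0 to 500 bp apart. This left 1496 of 4344 peaks (34.4%, exact 95% interval 33.0 to 35.9), next to 1352 distinct genes. The chromatin immunoprecipitation and sequencing (ChIP-seq) had been done with an anti-GFP antibody on mixed-sex *Drosophila melanogaster* embryos taken whole, from a collection of 0 to 24 h. Both libraries, labelled biological replicates 1 and 2, came from a transgenic line with eGFP at the C terminus of Zfh2, and they form 1 group, so no comparison between conditions was possible. The labels do not say whether the line kept an untagged copy. Chromatin was sonicated to 200 to 800 bp. A peak is thus measured over the mixture of tissues and stages collected, and a site used in few cells cannot be told apart from a site that is weakly occupied in many.

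Zfh2 carries many zinc fingers and several homeodomains, and it is known for roles in the nervous system and in the proximal parts of wing and leg. Promoters of broadly expressed fly genes often hold short core promoter words close to the TSS, among them the DNA replication-related element (DRE, read by Dref and overlapping the site of the insulator protein BEAF-32) and the site of M1BP. Promoters of tissue-restricted genes more often hold a TATA box or an initiator.

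Of the sequences under the summits, the first 10 below carry the core promoter words that were more frequent at these summits than in flanking DNA, and the last 3 come from 3 of the strongest peaks. Each is the 101 bases from 50 bp before to 50 bp after the summit, 5' to 3' on the strand of the gene, read from the RefSeq genome of the same Release 6 assembly as dm6. Capitals mark the named word as it stands on that strand, and CGATA outside that word is left unmarked in the first 10. *kibra*, a Hippo pathway scaffold (chr3R:14724317-14724417, minus strand, summit at -106 from the TSS), and *Sgt1*, a co-chaperone (chr3R:8305345-8305445, minus strand, -121), carry TATCGATA, the DRE word, which reads the same on both strands.
kibra: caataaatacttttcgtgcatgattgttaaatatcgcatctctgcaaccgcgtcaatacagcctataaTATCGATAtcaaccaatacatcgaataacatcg
Sgt1: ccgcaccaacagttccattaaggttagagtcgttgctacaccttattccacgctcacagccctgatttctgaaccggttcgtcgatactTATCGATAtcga
*Vha68-2*, a subunit of the vacuolar proton pump (chr2L:12974129-12974229, plus strand, -143), and *cyst* (chr2L:19508770-19508870, minus strand, -56) carry GGTCACAC, the word of M1BP, the first of them as its reverse complement.
Vha68-2: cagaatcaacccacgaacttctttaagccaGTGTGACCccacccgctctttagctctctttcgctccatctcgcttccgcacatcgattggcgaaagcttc
cyst: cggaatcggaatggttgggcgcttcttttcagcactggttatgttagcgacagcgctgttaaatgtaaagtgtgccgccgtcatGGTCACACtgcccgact
*larp*, which encodes an RNA-binding protein (chr3R:28336481-28336581, minus strand, -91), and *Sec8*, an exocyst subunit (chr3R:5759000-5759100, minus strand, -53), carry CATCTCTA, and the window of *Sec8* also holds CATCACTA, in lower case.
larp: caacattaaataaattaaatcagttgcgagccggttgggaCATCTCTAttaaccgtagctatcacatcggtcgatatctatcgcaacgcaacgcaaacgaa
Sec8: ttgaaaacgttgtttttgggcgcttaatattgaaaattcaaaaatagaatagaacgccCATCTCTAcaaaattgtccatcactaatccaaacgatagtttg
*Hs2st*, a heparan sulfate sulfotransferase (chr2L:19444822-19444922, minus strand, -122), and *Regnase-1*, an endoribonuclease (chr3R:20036074-20036174, minus strand, -68), carry the related word CATCACTA, the second of them as its reverse complement.
Hs2st: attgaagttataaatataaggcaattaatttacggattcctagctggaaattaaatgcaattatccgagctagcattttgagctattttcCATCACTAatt
Regnase-1: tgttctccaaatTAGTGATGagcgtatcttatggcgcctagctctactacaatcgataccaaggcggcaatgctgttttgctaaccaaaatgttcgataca
*LPCAT*, a phospholipid acyltransferase (chrX:9580024-9580124, minus strand, -87), and *brwl* (chr2L:9570146-9570246, plus strand, -75, as the reverse complement) carry GGTATTTT.
LPCAT: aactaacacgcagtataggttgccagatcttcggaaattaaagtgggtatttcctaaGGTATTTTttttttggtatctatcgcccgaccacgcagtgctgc
brwl: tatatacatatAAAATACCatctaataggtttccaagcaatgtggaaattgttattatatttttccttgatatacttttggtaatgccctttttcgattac
*CG14100* (chr3L:19590571-19590671, minus strand, -97) lies under the strongest peak of the list and holds only the short word CGATA, as its reverse complement. The windows of *Atf3*, a bZIP transcription factor (chrX:1275466-1275566, minus strand, -232), and *ph-p*, a Polycomb group protein (chrX:2137268-2137368, minus strand, -463), hold none of the words that passed above flanks.
CG14100: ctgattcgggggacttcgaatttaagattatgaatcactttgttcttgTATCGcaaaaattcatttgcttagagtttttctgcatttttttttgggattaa
Atf3: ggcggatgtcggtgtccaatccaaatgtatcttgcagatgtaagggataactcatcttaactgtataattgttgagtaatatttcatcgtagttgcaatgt
ph-p: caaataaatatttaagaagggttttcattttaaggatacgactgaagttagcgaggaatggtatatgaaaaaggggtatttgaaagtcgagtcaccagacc

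The summits lay close to the TSS. Their median position was -119.5 bp from it, with quartiles of -222 and -58 bp, and 896 of 1496 (59.9%, exact 95% interval 57.4 to 62.4) lay within 150 bp upstream. Per base, the stretch from 51 to 100 bp upstream held the most, with 6.92 summits per bp, against 6.24 from 1 to 50 bp and 1.23 from 251 to 500 bp. Because the rule fixed the side and the limit, only the distribution inside the 500 bp is a measurement here. At the limit itself, *CAP* at -499 bp and *Sqor* at -492 bp were the last peaks inside, with signals of 228 and 93.2. *CG17896* and *wkd*, both at -501 bp, were the first outside, with signals of 911 and 71.6. At the TSS, *TfIIA-L* and *scny* (both at -1 bp, signals 64.9 and 305) were inside, and *Claspin* and *EMRE* (both at 0 bp, signals 156 and 74.4) were outside. At the pair margin, *CG42837* and *CG42455* stayed in at 507.5 and 510 bp from a pair's midpoint, while *zip* and *rux* fell out at 467.5 and 459 bp.

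**Figure D1:**
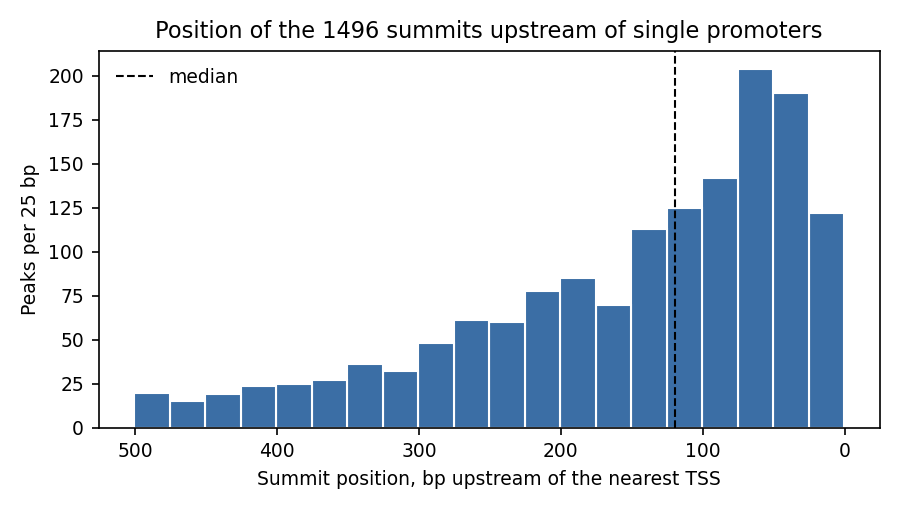
Histogram of the summit positions of the 1496 peaks, in bp upstream of the nearest TSS (x axis, 25 bp bins) against the number of peaks (y axis). The dashed line is the median, 119.5 bp upstream, and the bins thin out towards the limit of 500 bp.

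The description of these promoters as single held for most of them. No other gene of any kind had a TSS within 500 bp of the TSS nearest to the summit in 1312 of 1496 peaks (87.7%). Another protein-coding gene had one within 500 bp in 127 (8.49%), 88 of them on the other strand. The pair rule leaves out summits near divergent pairs, so the 87.7% is partly built in. That rule reads gene 5' ends and pair midpoints, not every transcript start. The nearest protein-coding neighbour on the upstream side pointed the same way as the gene in 810 peaks and away from it in 686. The median gap to that neighbour was 747 bp in the first group and 1440 bp in the second. The 2 groups had median signals of 118 and 116. Most summits (903, 60.4%) lay between genes, 218 (14.6%) lay in the body of another gene, and 159 (10.6%) lay in an exon.

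A sizeable minority of the peaks belonged to internal promoters. The nearest TSS was the 5' end of the gene in 1071 peaks (71.6%) and an alternative start inside the gene in 425 (28.4%), whose summits therefore lay in the body of their own gene. The matching share over all annotated starts is not given here. Peaks at internal starts stood farther out, with a median of -165 bp against -103 bp. Their genes were longer, with a median of 10199 bp against 3880 bp. The DRE word was in 2.12% of the windows at internal starts and 7.10% of those at 5' ends, and CGATA in 20.9% and 34.0%. Median signals were 123.4 at internal starts and 115 at 5' ends. Among genes outside divergent pairs, 48.3% of those with a peak had more than 1 TSS, against 21.1% of those with no IDR summit within 1 kb of a TSS. A gene with more starts has more places for a peak, and the second group had no summit near any start. This contrast is thus partly built into the groups.

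Several genes held more than 1 of these peaks, 113 genes with 2 and 13 with 3 or more. *Rtnl1*, a reticulon that shapes the endoplasmic reticulum, held 6, with summits from -128 to -363 bp of its various starts. Their signals in the IDR list were 841, 402, 159, 109, 85.8 and 75.04, so the strongest stood well above the others. *dnc*, the cAMP phosphodiesterase known from memory mutants, held 4 peaks with signals of 637, 394, 242 and 148. The 4 peaks of *Pfrx*, an enzyme of fructose bisphosphate metabolism, were weaker and more alike, at 141, 114, 112 and 73.5. The other 10 genes held 3 peaks each. Among them were *larp* (highest signal 1036), *spi*, an EGF receptor ligand (466), *Ptpmeg2*, a tyrosine phosphatase (409), *mtd* (367), *Pgk*, a glycolytic enzyme (322), and *CAP* (286). *wrd*, a regulatory subunit of protein phosphatase 2A (224), *pbl*, which acts in cytokinesis (134), *SNF4Agamma*, a subunit of AMP-activated kinase (115), and *neur*, a ubiquitin ligase of Notch signalling (93.9), completed them.

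Signal values, a score without a fixed scale that ranks peaks within 1 list, ran from 64.9 to 2951 over the 1496 peaks, with a median of 117 and quartiles of 85.9 and 178. Peaks at divergent pairs had a median of 134, peaks 0 to 500 bp downstream of a TSS 98.3, the 112 peaks at noncoding promoters 146, and the remaining 1544 peaks 101. The 434 strongest peaks of the whole IDR list held 165 of the 1496 (11.03%), 125 of 913 at divergent pairs (13.7%), 23 of 279 downstream of a TSS (8.24%) and 14 of 112 at noncoding promoters (12.5%). These are descriptions, since peaks within a list are not replicates.

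The 20 strongest peaks lay at genes of varied function. *CG14100* (signal 1654 in replicate 1 and 1308 in replicate 2) and *Ugalt*, a UDP-galactose transporter (1386 and 855), ranked first and second in each list. *Atf3* had 814 and 504, *mRpL41*, a mitochondrial ribosomal protein, 694 and 624, and *ph-p* 690 and 519. Each of these 5 was high in both replicates. *Pal1*, an enzyme of peptide amidation, *CG1888* and *CG31145* followed with IDR signals of 1186, 1177 and 1070, then *larp* with 1036 and *MFS10* with 1032. *Msp300*, the nesprin that anchors muscle nuclei (960), *CG3552* (939), *px*, a gene of wing vein patterning (915), and *Rtnl1* (841) came next. *Hpf1*, a partner of poly-ADP-ribosylation (809), *CG1607* (800), *Sox14*, a transcription factor of ecdysone responses (787), *CG11857* (785), *amon*, a prohormone convertase (763), and *Acsf2*, an acyl-CoA synthetase (759), closed the list. The lowest rank that any of the 20 took was 90 among the calls of replicate 1 and 88 among those of replicate 2. Of the 20 windows, 3 held CGATA (*CG14100*, *MFS10* and *CG11857*) and 0 held the DRE word, which allows a share of up to 16.8% (exact 95% upper limit).

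The replicates held nearly all of these sites. A relaxed call covered the summit in replicate 1 for 1484 of 1496 peaks, in replicate 2 for 1483 and in both for 1471 (98.3%, exact 95% interval 97.5 to 98.9). No peak lacked both. Over the whole IDR list the share covered in both was 98.4%, so it is not particular to these peaks. The IDR list was made from the same lists, so this share is not independent of how the peaks were chosen. When a replicate summit had to lie within 100 bp of the IDR summit, the share was 94.0%. Across the 1471 peaks the rank (Spearman) correlation between the replicate signals was 0.65 and Pearson's r between their log2 values was 0.74, a description across peaks of the same 2 libraries. Signal values were 1.19 times as high in replicate 1 as in replicate 2 at the median peak, and this ratio ran from 0.545 to 2.20 between the 5th and 95th percentiles. The scale of each list is its own, so the median ratio says nothing of occupancy.

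**Figure D2:**
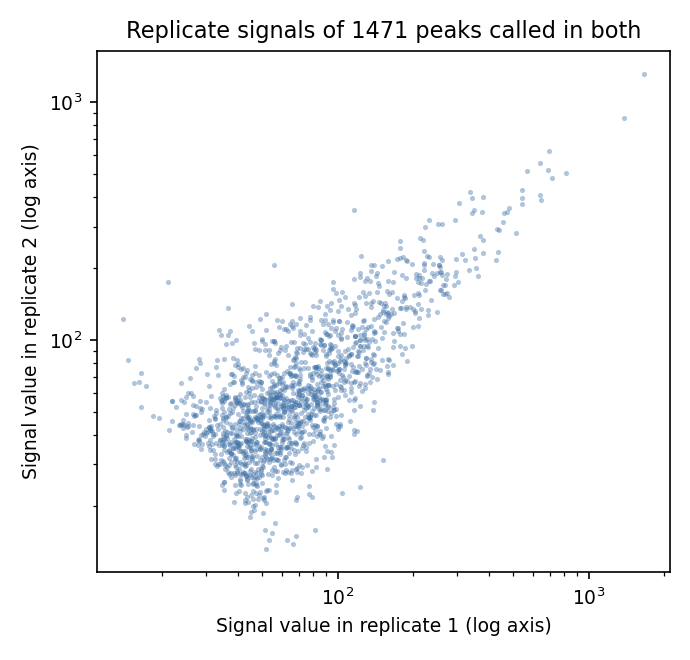
Signal value of each of the 1471 peaks covered by a call in both replicates, replicate 1 on the x axis and replicate 2 on the y axis, both log axes. The points run along 1 band and it is narrowest at the strong end, where *CG14100* and *Ugalt* stand apart.

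Peaks that differed most between replicates were mostly weak. *CG33695* had 81.3 in replicate 1 and 15.9 in replicate 2, a ratio of 5.12. *CAP* had 122.96 and 24.1, *fkh*, the forkhead transcription factor, 152 and 31.4, *tub*, an adaptor of Toll signalling, 66.4 and 13.8, and *CG11357* 104 and 22.7. In the other direction, *idc* had 14.0 and 122, a ratio of 0.114. *CG7849* had 21.1 and 176, *Mcad*, an enzyme of fatty acid oxidation, 14.7 and 82.0, *nmdyn-D6* 16.5 and 72.9, and *Grx1*, a glutaredoxin, 15.5 and 66.2. Each replicate value is that of the strongest call covering the summit. For *CAP* in replicate 1 and *CG7849* in replicate 2, that call also covered another listed summit of the same gene. The ratios of these genes may therefore not compare the same site. Some sites that only 1 replicate covered were not weak in the IDR list. *MRP*, an ABC transporter gene, had an IDR signal of 386 and 224 in replicate 2, with no call over its summit in replicate 1. *rdx*, an adaptor of a ubiquitin ligase, had 339 and 231 in replicate 1, with none in replicate 2. Over the 25 peaks with a single replicate call the median IDR signal was 99.0.

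Core promoter words were more frequent at the summits than in DNA farther from the promoter. Because the rule placed each summit within 500 bp of a TSS and the flanks lie 1000 bp away, a word that sits at promoters in general also rises in this comparison, and promoters without a peak are set beside the summits further on. Of 18 words sought on both strands in the 101 bp windows, 7 (38.9% of those tested) were more frequent at the summit than in the window 1000 bp farther upstream, and 1 (5.56%) was less frequent, at an adjusted p of 0.05 (exact McNemar test, two-sided, Benjamini-Hochberg over the 18 words). TATCGATA, the DRE word, was in 85 of 1496 windows (5.68%, exact 95% interval 4.56 to 6.98). Its share was 0.267% in the flanks on both sides, 21.3 times lower (adjusted p = 6.6e-21, exact McNemar test), and the fold was 8.50 with flanks 500 bp away. The shorter CGATA, which lies inside the DRE word, was in 453 windows (30.3%) and in 13.8% of flanks, a 2.19-fold difference (adjusted p = 1.6e-26, exact McNemar test). It was present without the full DRE word in 368 windows.

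The other core promoter words were rarer. GGTCACAC, the word of M1BP, was in 49 windows (3.28%), 9.80 times its flank share of 0.334% (adjusted p = 4.2e-10, exact McNemar test). The fold was 6.00 in each replicate alone. CATCTCTA, of the kind catalogued as motif 7 of fly promoters, was in 31 windows (2.07%), 20.7 times its flank share of 0.100% (adjusted p = 6.9e-08, exact McNemar test). So few flanks held it that the fold was 3.88 with flanks 500 bp away and 60 with gene 5' ends only. With windows of 25 bp on each side the flanks held none, so no fold was defined and the word could not be called. Its relative CATCACTA was in 16 windows (1.07%, 6.40-fold, adjusted p = 0.0039, exact McNemar test). GGTATTTT, of the kind of motif 6, was in 33 windows (2.21%, 3.30-fold, adjusted p = 0.0039, exact McNemar test). TGTTTAC, a forkhead-type word, was in 45 windows (3.01%), only 1.43-fold above flanks (adjusted p = 0.035, exact McNemar test). The word was in 1.60% of upstream flanks, which the test used, and in 2.61% of downstream flanks. It did not pass in the 2172 strongest peaks of the IDR list or in replicate 1 alone (adjusted p of 0.12 and 0.29 by the exact McNemar test, over a range of 0.00030 to 0.55 for its alternatives). CATCACTA and GGTATTTT missed the threshold in the 2172 strongest peaks too, with an adjusted p of 0.088 (range 6.6e-06 to 0.61) and 0.12 (range 1.1e-07 to 0.12) by the exact McNemar test. Their folds there were 8.00 and 2.83, from fewer peaks.

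Together, at least 1 of the 5 core promoter words was in 196 windows (13.1%), against 20 upstream flanks (1.34%) and 24 downstream flanks (1.60%). These 5 were grouped after their values were seen, so no test is given for the sum. Another 983 windows (65.7%) held none of the 5 and no CGATA. The summit windows had a median GC content of 38.6%, lower than the 43.6% of upstream and the 45.5% of downstream flanks, and the part of base composition in these folds was not tested.

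Of the words that passed, the strongest carriers were these. For the DRE word they were *Alg3*, a mannosyltransferase of N-glycosylation, with a signal of 424, *Ufc1*, an enzyme of the UFM1 pathway, with 330, and *CG7006* with 296. For GGTCACAC they were *Rnp4F* (277), *eEF1alpha1*, the translation elongation factor (237), and *CG34195* (181). For CATCTCTA they were *goe* (289), *hrg*, a poly(A) polymerase (192), and *Sugb* (183), and *goe* also led CATCACTA after *Hs2st* (556), before *Regnase-1* (241). For GGTATTTT they were *mRpL41* (1312), *CG8229* (252) and *LPCAT* (203). For TGTTTAC they were *Acsf2* (759), *Tina-1* (524) and *hpo*, the Hippo kinase (389).

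The words that homeodomain proteins and developmental enhancers are known for were not called above flanks. TAATTA, the core read by many homeodomains, was in 5.61% of the windows and 5.95% of flanks (7.35% upstream and 4.55% downstream). Its test, against the upstream flank, gave an adjusted p of 0.12 (exact McNemar test). With a limit of 250 bp TAATTA was called below flanks (ratio 0.838, adjusted p = 0.048, exact McNemar test), over a range of 0.048 to 0.93 for its alternatives. CAATTA was in 7.89% and 7.49% (adjusted p = 0.82, exact McNemar test). CAGGTAG, the word of the early activator Zelda, was in 4 windows (0.267%) and 0.769% of flanks (adjusted p = 0.13, exact McNemar test). In replicate 2 alone CAGGTAG was called below flanks (ratio 0.364, adjusted p = 0.035, exact McNemar test), over a range of 0.035 to 0.61 for its alternatives. The initiator word TCAGTT was in 6.35% and 6.28% (adjusted p = 0.99, exact McNemar test). The windows reached the TSS only for the 312 summits (20.9%) that lay 1 to 50 bp upstream. The test of TCAGTT thus cannot say whether an initiator at the TSS itself was more frequent. TATAAA, the core of the TATA box, was in 13.9% and 10.6%, a 1.31-fold difference that missed the threshold (adjusted p = 0.061, exact McNemar test). The part of window placement in the TATAAA values was not tested. For TATAAA the 2 libraries gave unlike values, whose difference was not tested: 1.67-fold (adjusted p = 9.9e-08, exact McNemar test) in replicate 2 alone and 1.05-fold (adjusted p = 0.88) in replicate 1 alone, over a range of 9.9e-08 to 0.88 for its alternatives. The 1 word below flanks was the dinucleotide repeat CACACACA, in 15 windows (1.00%) against 2.51% of flanks, a ratio of 0.40 (adjusted p = 0.017, exact McNemar test). It lost this call in 7 of 9 alternatives, among them replicate 1 alone (ratio 0.714), with adjusted p-values from 0.035 to 0.34.

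The occurrences of several words were concentrated around the summit or just downstream of it, on the side of the TSS. The fullest 25 bp bin was 50 to 75 bp downstream for the DRE word, with 32 occurrences. For GGTCACAC it was 25 to 50 bp downstream, with 25. The rule placed the summits near a TSS, and how far these positions follow the TSS alone was not tested. Of 295 occurrences of the DRE word within 500 bp of a summit, 95 (32.2%) lay within 50 bp of it, and these had a median position of -47.5 bp from the TSS. For GGTCACAC the share was 29.4% and the median position -34 bp, and for CATCTCTA 30.5% and -22 bp. The share was 26.6% for CATCACTA and 19.7% for GGTATTTT. Within the 50 bp the words were spread out, with median distances to the summit of 24.5 bp for the DRE word, 30 bp for GGTCACAC and 19.5 bp for CATCTCTA. CATCTCTA was oriented, with 28 occurrences near the summit on the strand of the gene and 4 on the other, whereas GGTCACAC had 25 and 27. TAATTA had 7.96% of its occurrences within 50 bp of the summit and TATAAA 10.2%. CACACACA, with overlapping copies counted, had 2.31%, and most of the rest lay on the transcribed side.

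**Figure D3:**
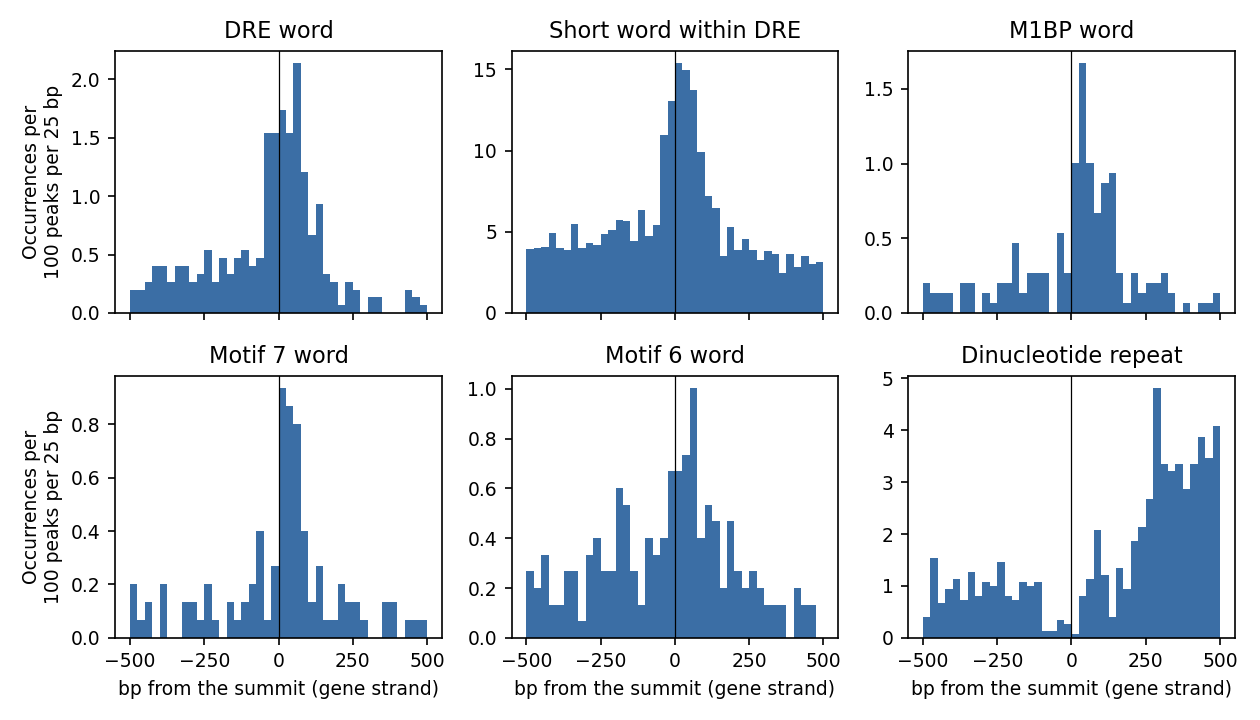
Occurrences of 6 words per 100 peaks in 25 bp bins (y axis) by distance from the summit in bp (x axis, positive towards the gene body): the DRE word TATCGATA, CGATA within it, the M1BP word GGTCACAC, the motif 7 word CATCTCTA, the motif 6 word GGTATTTT and the repeat CACACACA. The first 5 rise around or just downstream of the summit, and the repeat dips there.

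As a background, windows of the same length were placed at fixed distances upstream of 8441 genes outside divergent pairs with no IDR summit within 1 kb of a TSS. This background was added after the first values were seen. Its genes were picked for lacking a summit, and fewer of them had several starts, as given above. Each gave 1 window per distance, whereas 28.4% of the peaks lay at starts inside the gene. The comparison thus does not isolate promoter position. For summits 1 to 50 bp upstream, the DRE word was in 15.7% of 312 windows (exact 95% interval 11.9 to 20.2) against 3.70% (3.30 to 4.12) at promoters with no peak. CGATA was in 56.7% against 20.5%, GGTCACAC in 7.37% against 3.01% and CATCTCTA in 6.09% against 0.652%. The intervals of these 4 words did not overlap. CATCACTA was in 1.92% (0.709 to 4.14) against 0.332% (0.221 to 0.479), also apart. Those of the other 2 words above flanks overlapped, with GGTATTTT in 3.53% (1.77 to 6.22) against 1.98% (1.69 to 2.30) and TGTTTAC in 4.49% (2.47 to 7.41) against 2.48% (2.16 to 2.83). The reverse was seen for the 2 words of regulated core promoters: TATAAA was in 6.73% (4.21 to 10.1) against 21.5% (20.6 to 22.4), and TCAGTT in 6.41% (3.96 to 9.73) against 17.6% (16.8 to 18.4).

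For the DRE word and CGATA the difference from promoters with no peak was smaller farther out. At 51 to 100 bp the DRE word was in 6.65% of windows against 2.69%, and CGATA in 42.8% against 20.3%. At 101 to 150 bp the DRE word was in 2.94% (1.19 to 5.97) against 0.900% (0.710 to 1.13), and CGATA in 18.1% against 14.2%. At 151 to 250 bp the shares were 0.683% against 0.545% for the DRE word and 13.7% against 12.3% for CGATA, with overlapping intervals. At 251 to 500 bp the DRE word was in 1.30% (0.356 to 3.30) against 0.332% (0.221 to 0.479). CGATA was in 14.7% (10.9 to 19.1) against 11.4% (10.7 to 12.1) there, and both pairs of intervals overlapped. The shares of the M1BP word GGTCACAC and the motif 7 word CATCTCTA were also lower farther out. GGTCACAC was in 4.91% against 1.05% at 51 to 100 bp. At 101 to 150 bp it was in 1.68% (0.460 to 4.25) against 0.367% (0.250 to 0.521), with overlapping intervals. At 151 to 250 bp it was in 1.37% (0.373 to 3.46) against 0.142% (0.0735 to 0.248), with intervals apart. At 251 to 500 bp it was in 0.326% against 0.225%, with overlapping intervals. CATCTCTA was in 2.89% against 0.237% at 51 to 100 bp and in 0 of 238 windows at 101 to 150 bp (exact 95% upper limit 1.54%), against 0.249%. TGTTTAC was in 2.02% against 2.39% at 51 to 100 bp. GC content was also lower farther out, with medians of 45.5%, 41.6%, 35.1%, 33.7% and 34.7% in the 5 distance bins of the peaks. Median signals in these bins were 110, 115, 130, 126 and 112, which show no trend with distance.

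**Figure D4:**
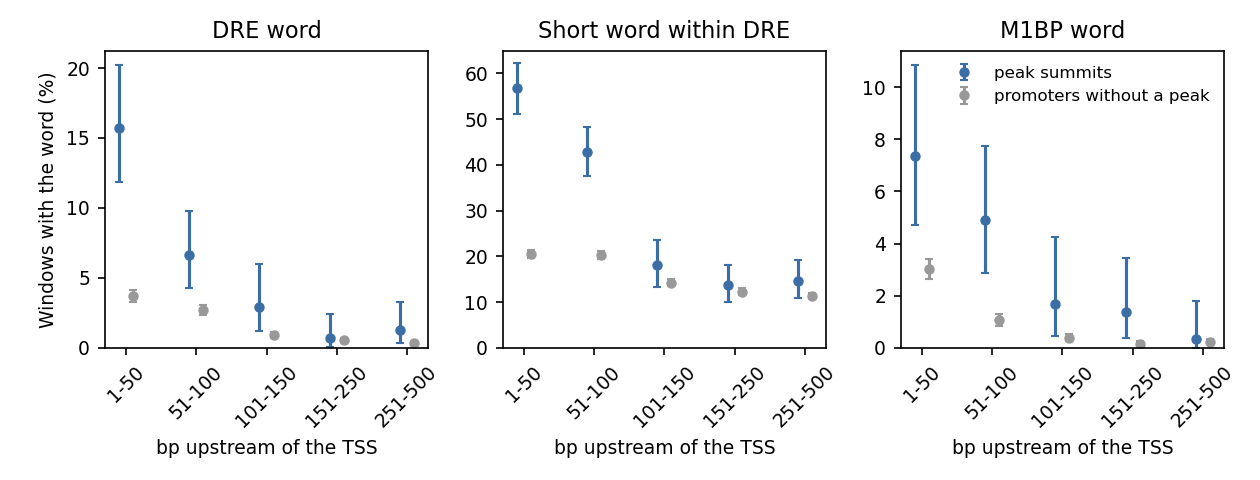
Share of 101 bp windows with the DRE word, CGATA or the M1BP word GGTCACAC (y axis, percent) by distance upstream of the TSS (x axis, bp), for windows at the peak summits (blue) and at fixed distances from promoters with no peak (grey). Bars are exact 95% intervals for counting error, and in all 3 panels they keep the 2 kinds of window apart at 1 to 50 and 51 to 100 bp.

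Over whole promoters, from 250 bp before to 50 bp after the gene's 5' end (301 bases), the DRE word was in 9.37% of all 13945 protein-coding genes. It was in 12.8% of the 1276 genes outside divergent pairs that had a peak, in 5.02% of those with no IDR summit within 1 kb and in 18.1% of genes in divergent pairs. GGTCACAC was in 7.71%, 9.01%, 4.06% and 15.4% of the same 4 groups, and CGATA in 47.5%, 55.0%, 39.5% and 63.2%. Read from the word, 163 of 674 genes outside pairs with the DRE word in this window had a peak (24.2%, exact 95% interval 21.0 to 27.6). For CATCTCTA it was 56 of 176 (31.8%, 25.01 to 39.2), and for TAATTA 247 of 2017 (12.2%). Most genes outside pairs with a DRE word thus had none of these peaks, and 424 had no IDR summit within 1 kb.

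The strongest peaks held CGATA, GGTCACAC and CATCTCTA less often than the rest. In the 374 strongest of the 1496 peaks, CGATA was in 24.6% of windows, then in 27.5%, 35.0% and 34.0% of the next 3 groups of 374 in order of signal. GGTCACAC was in 1.34%, 3.74%, 4.01% and 4.01%, and CATCTCTA in 0.802%, 2.41%, 2.41% and 2.67%. The DRE word was in 4.55%, 3.48%, 8.56% and 6.15%, which is not a steady order. Median GC content was 34.7% in the strongest group and 39.6%, 38.6% and 40.1% in the others, and the strongest summits lay at a median of -139 bp. Windows with CGATA had a median signal of 107 and those without it 122. These are descriptions over peaks of 1 list, and whether base composition or position accounts for them was not tested.

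Against the 2 most similar classes of promoter peak, 1 word of 18 (5.56% of those tested) differed from the 913 peaks at divergent pairs, and 0 (0%) differed from the 279 peaks 0 to 500 bp downstream of a TSS (Fisher's exact test, two-sided, Benjamini-Hochberg over 36 tests). The word was GAGAGAG, read by GAGA factor and found at developmentally regulated promoters. It was in 27 windows (1.80%) upstream of single promoters and in 3 at pairs (0.329%), a 5.49-fold difference (adjusted p = 0.035, Fisher's exact test). With windows of 100 bp on each side it was in 4.81% and 0.767% (adjusted p = 1.6e-07, Fisher's exact test), but in replicate 2 alone and in the 2172 strongest peaks the adjusted p was 0.11 and 0.50, over a range of 1.6e-07 to 0.51 for the alternatives. The ratio ran the same way in each of these alternatives. Against its flanks GAGAGAG did not pass (1.15-fold, adjusted p = 0.53, exact McNemar test). It did pass in the wider windows of 100 bp per side (1.37-fold, adjusted p = 0.00031) and in replicate 1 alone (1.60-fold, adjusted p = 0.036), while replicate 2 alone gave 0.737-fold (exact McNemar test, adjusted p from 0.00031 to 1 over its alternatives).

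The DRE word was in 5.68% of windows upstream of single promoters and 7.89% at pairs (adjusted p = 0.29, Fisher's exact test), and CGATA in 30.3% and 34.6% (adjusted p = 0.25, Fisher's exact test). With windows of 100 bp on each side, these and 4 other words were less frequent upstream of single promoters than at pairs, with DRE shares of 9.49% and 13.9% (adjusted p = 0.0064, Fisher's exact test). The classes also differ in position, with a median of -49 bp from the TSS at pairs and -119.5 bp upstream of single promoters. Several of these words were less frequent farther out, and the part of position in the comparisons with pairs was not tested. Against downstream peaks, 1 word had an unadjusted p below 0.05 by Fisher's exact test, CACACACA, with 1.00% against 2.87%. A p above the threshold does not show that the classes are alike, since 279 peaks give few carriers of a rare word.

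Of the protein-coding genes, 10462 of 13945 (75.02%) lay outside divergent pairs, and 1276 of these had such a peak (12.2%). Another 76 genes of pairs had one at a further TSS. The share was 11.3% on 2L, 13.3% on 2R, 11.9% on 3L, 11.8% on 3R and 12.6% on X. On the small chromosome 4 it was 13 of 70 genes (18.6%). Genes with a peak were longer (median 4474 bp) than those with no IDR summit within 1 kb (1925 bp). These groups also differ in their number of starts, as given above, and its part in the difference in length was not tested.

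Genes of the cytosolic ribosome held these peaks most often among the 16 lists. The lists are symbol patterns, so they take in related genes of the same name. Of 57 cytosolic ribosomal protein genes outside divergent pairs, 28 had a peak (49.1%, exact 95% interval 35.6 to 62.7), against 12.2% of all genes outside pairs. Their summits lay at a median of -64 bp with a median signal of 140, against -119.5 bp and 117 over all 1496 peaks. CGATA was in 17 of the 28 windows and the DRE word in 8. *RpL23A* had the highest signal (293 in replicate 1 and 185 in replicate 2), then *RpS29* (153 and 108), *RpS5a* (126 and 120) and *RpL17* (159 and 71.6). Each of these 4 was covered in both replicates.

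The rest of the translation machinery held fewer. Translation factors had a peak at 7 of 34 genes outside pairs (20.6%, 8.70 to 37.9), led by *eEF1gamma* (signal 260), *eEF1alpha1* (237), *eEF5* (174) and *eIF2A* (170). Mitochondrial ribosomal proteins had 5 of 22 (22.7%), led by *mRpL41* (1312), *mRpL4* (237), *mRpL53* (203) and *mRpL9* (126), and 0 of these 5 windows held CGATA. Aminoacyl-tRNA synthetases had 1 of 13, *PheRS-m* (103). The median signals of these lists were 128, 203 and 103.

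Transcription, splicing and replication genes gave small numbers. RNA polymerase, Mediator and general factors had 8 of 33 (24.2%, 11.1 to 42.3; median signal 131), led by *Polr2F*, a polymerase subunit (457), *TfIIA-S* (325), *Taf4* (313) and *MED6* (282). Spliceosome genes had 4 of 10 with weak peaks, *SmD3* (73.7), *Prp31* (66.6), *Prp39* (65.7) and *snRNP-U1-70K* (65.5), all near the lowest signal of the list. DNA replication had 2 of 10, *Mcm2* (172) and *Orc1* (128). Insulator and promoter factors had 2 of 8, *row* (261) and *BEAF-32* itself (165), the latter with its summit at -27 bp.

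Genes of membrane traffic, protein turnover and energy supply were near the background or somewhat above it. Vesicle traffic had 10 of 41 (24.4%, 12.4 to 40.3), led by *Cog8* (165), *Sec8* (153), *Sec61beta* (148) and *Exo84* (140). Autophagy and V-ATPase had 6 of 30 (20%, 7.71 to 38.6), led by *Vha16-1* (173), *Atg8a* (160), *Vha68-2* (151) and *VhaM9.7-c* (145). Oxidative phosphorylation had 8 of 54 (14.8%, 6.62 to 27.1), led by *ND-ASHI* (353), *COX5A* (232), *ND-B17* (128) and *SdhD* (120). The proteasome had 4 of 28 (14.3%), *Rpn6* (230), *Rpn11* (93.3), *Prosalpha3* (90.2) and *Rpn12* (86.1), and all 4 windows held CGATA. The median signals of these 4 lists were 105, 145, 115 and 91.7.

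Cuticle and chemosensory genes lay below the background. Cuticle genes had 0 of 94 (exact 95% upper limit 3.85%), and chemosensory receptors and binding proteins had 1 of 209 (0.478%, up to 2.64%), *Obp83g*, with a signal of 72.9. The list of wing hinge and proximodistal patterning genes, the tissue Zfh2 is best known from, had 0 of 21 (up to 16.1%). Neuronal identity genes had 1 of 17 (5.88%, 0.149 to 28.7), and the intervals of these 2 lists include the 12.2% of all genes outside pairs. The 1 gene was *elav*, the pan-neuronal RNA-binding protein, whose peak at -256 bp was strong (213 in replicate 1 and 268 in replicate 2).

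**Figure D5:**
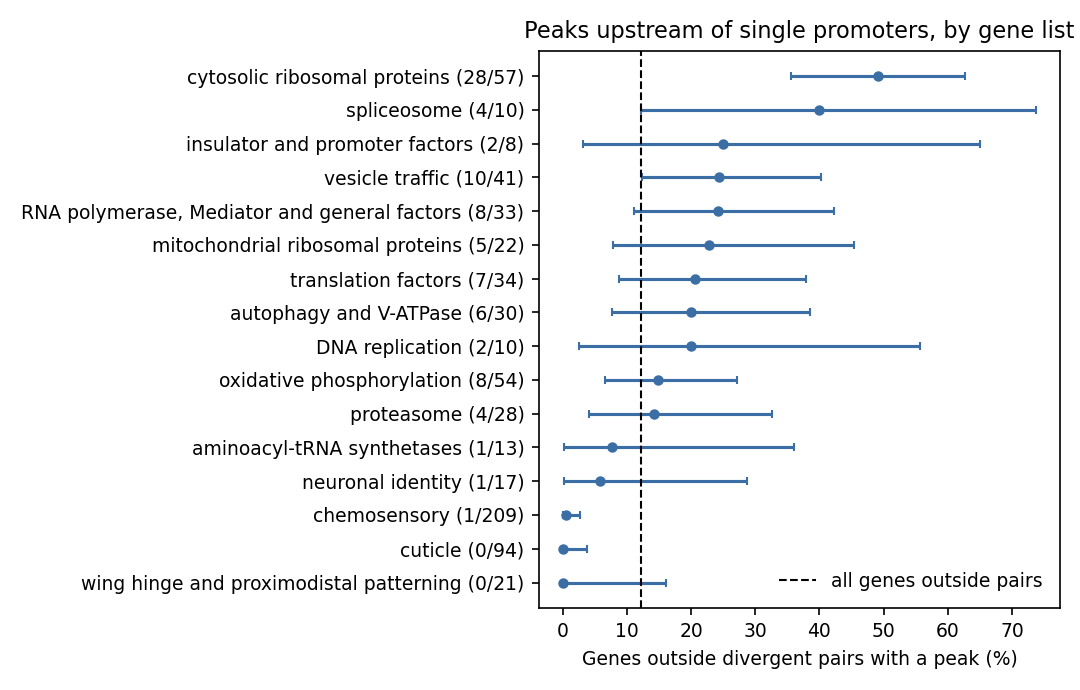
Share of the genes outside divergent pairs that had a peak upstream of a TSS (x axis, percent) for 16 gene lists (y axis, with genes with a peak and genes in the list). Bars are exact 95% intervals for counting error and the dashed line is the 12.2% of all such genes, with the cytosolic ribosomal proteins at 49.1% and cuticle genes at 0.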

How the data were processed

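The submitters deposited peak lists in narrowPeak layout: relaxed calls of replicate 1 (30000), replicate 2 (29690) and both pooled (30000), and the IDR list (4344), all on dm6. Per the deposited file descriptions, a control alignment served in calling them. Column 7 of the deposited lists holds a score, the caller's signal value, used here within a list only. The −log10 q-value that the authors give in column 9 was not used to rank. Aligner and caller: not given in the sources used here. The control's values and the dm3 lists were not used here, and the depth is unknown. The 2 libraries are labelled biological replicates of 1 group.

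Summits (start plus offset) were placed relative to transcript starts of Ensembl release 115 on the 6 main arms, without transposable elements. Coordinates are 1-based. Of the member summits, 42 had tied nearest genes, 1 lay outside its interval, and 4 intervals were listed with more than 1 member summit. Words were sought on both strands, 50 bp on each side of the summit and in windows 1000 bp away. Intervals on shares are exact (Clopper-Pearson, 95%) and cover counting error only. Peaks are not biological replicates, and p-values describe this list of peaks. Tests were the exact McNemar test (summit against upstream flank) and Fisher's exact test (against other promoter peaks), with SciPy 1.17.1 in Python 3.11.15; the procedure was tested on simulated data. Gene lists, signals and promoters without a peak were described without a test.

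The members, words, lists, tests and alternatives were chosen with earlier results of these data known. The windows of promoters without a peak, their distance bins, the 301-base promoter windows and the grouping of 5 core promoter words were added after values were seen. Named genes are those of the 20 strongest peaks, up to 4 of highest signal per list, the 3 strongest carriers of each word above flanks, genes with 3 or more peaks, peaks beside each limit and the 5 most different between replicates in each direction. Beyond that rule, the printed sequences are strong carriers whose windows held no exon, *Rtnl1*, *dnc* and *Pfrx* are given peak by peak, and *MRP* and *rdx* were singled out after their values were seen. Alternatives were the 2172 strongest peaks of the list, gene 5' ends only, pairs up to 1000 bp apart, a limit of 250 bp, each replicate alone, windows of 25 or 100 bp on each side and flanks 500 bp away.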

Additional observations from a re-analysis of the deposited data

How the results depend on the processing

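In the 2172 strongest peaks of the IDR list there were 782 such peaks, and 6.62% of genes outside pairs had one. That share was 10.3% with gene 5' ends only, 11.1% with pairs up to 1000 bp apart left out and 10.3% with a limit of 250 bp. The share of summits within 150 bp was 63.6%, 57.3% and 75.4% in the last 3 settings, and the median position was -109, -128 and -88 bp. Taking each replicate alone gave 54.4% to 63.2% and -134 to -103 bp. Replicate summits within 100 bp were found for 94.0% of the peaks. The number of words above flanks was 4 in the 2172 strongest and 3 with windows of 25 bp on each side, fewer peaks and shorter windows. The 3 leave out CATCTCTA, which could not be called there because no fold was defined. The number below flanks was 0 in the 2172 strongest, with pairs up to 1000 bp apart left out, with windows of 25 or 100 bp and with flanks 500 bp away, and 0 to 2 with each replicate alone. The number of words that differed from divergent-pair peaks was 0 in the 2172 strongest, 0 with windows of 25 bp and 7 with windows of 100 bp, and 0 to 2 with each replicate alone. For downstream peaks it was 2 with windows of 100 bp and 0 to 1 with each replicate alone. Except where fewer peaks or another window length are the setting itself, the cause was not tested.

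No fold reversed a call. The DRE word kept its call in all 9 alternatives (8.50 to 31.6-fold), as did GGTCACAC (5.71 to 9.60-fold) and CGATA (1.88 to 2.76-fold). CATCTCTA could not be called with windows of 25 bp, where its flanks held none and no fold could be given. It kept its call in the other 8, at 3.88 to 60-fold. TGTTTAC lost its call in 5 alternatives, GGTATTTT in 3 and CATCACTA in 2.

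No paired analysis was possible because the 2 libraries belong to 1 group. Without read depth, a missing replicate call cannot be told apart from a shallow library, and whole embryos do not show which cells hold a site.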
